A study of Mus musculus with 8 samples.

Results

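Retinoic acid is made from vitamin A (retinol) inside the cell in a pair of oxidation steps and then acts on nuclear receptors. Alcohol and retinol dehydrogenases turn retinol into retinal, the ALDH1A aldehyde dehydrogenases turn retinal irreversibly into retinoic acid, the binding protein CRABP2 hands retinoic acid to the retinoic acid receptors, and CYP26 enzymes hydroxylate it for removal. In the heart the pathway is known for its part in the epicardium and in fibroblast precursors during development. In the 4 libraries labelled OEIRF7, Aldh1a1, the most abundant of these genes, was 2.91-fold lower than in the 4 libraries labelled GFP. Crabp2, Cyp26b1, the alcohol dehydrogenase Adh7, the receptor Rarb and the aldehyde dehydrogenase Aldh3a1 were 4.29-fold, 2.35-fold, 2.65-fold, 1.61-fold and 2.03-fold higher. Adh7 and Aldh3a1 had at most 132 counts in a library, and the groups overlapped for Aldh3a1.

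The genes described here were 9 of the 22274 genes in the deposited table, taken by their symbols for their place in retinoid metabolism and the aldehyde dehydrogenase family: Aldh1a1, Aldh1a2, Aldh1a3, Aldh3a1, Adh1, Adh7, Crabp2, Rarb and Cyp26b1. RNA-seq was performed on primary murine cardiac fibroblasts, the matrix-producing cells of the heart, and every culture received TGF-β, a cytokine that turns fibroblasts into myofibroblasts, for 24 h at a dose of 5 ng per ml by the study's methods. The control libraries (labelled GFP, n = 4) came from cells given an empty vector with a GFP reporter and the others (labelled OEIRF7, n = 4) from cells given a vector for IRF7, a transcription factor of the interferon response. The study's text names adenovirus, in which a CMV promoter drives human IRF7, whereas the submitters' design note names an adeno-associated virus, and the one in the study's reagent list carries mouse Irf7 behind a periostin promoter. There was no group without TGF-β and none without a vector, and strain, age, sex and pooling of the mice are not given in the sources used here for these cultures. The study's legend for these experiments gives 3 biological replicates, whereas 4 libraries were deposited per group, and the labels do not say which libraries were separate cultures. The p-values therefore measure only the spread between these libraries, which may be technical.

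Total counts per library lay between 24454801 and 28658826. Mouse Irf7, whose counts do not measure a human transgene, was at 92.0 to 147 CPM (counts scaled to a common library size) in the libraries labelled GFP and at 14.5 to 16.4 CPM in those labelled OEIRF7, a fall by 2.96 on the log2 scale (standard error, SE, 0.12, adjusted p = 7.7e-11, edgeR). If the vector used here carried the mouse gene, this fall goes against the label, so every direction here is between libraries as labelled. Of 8 fibroblast markers all were tested, and their summed level was 10878 to 11442 CPM in the GFP libraries and 9663 to 10395 CPM in the OEIRF7 libraries. Of the cardiomyocyte markers, 7 of 8 were too low to be tested, with Myh6 at no more than 1 count in any library. The tested marker, Tnnt2, fell by 0.54 on the log2 scale (adjusted p = 0.00057, edgeR), from 11.3 to 7.78 CPM on average, without overlap between groups. The summed level of 8 macrophage markers was 282 to 334 CPM in the GFP libraries and 355 to 395 CPM in the OEIRF7 libraries (4 higher, 0 lower). That of 8 endothelial markers was 229 to 241 and 233 to 260 CPM (3 higher, 1 lower), and that of 8 mural markers was 1403 to 1525 and 1293 to 1447 CPM (3 higher, 3 lower). In bulk RNA, fewer cells of a type and less RNA per cell cannot be told apart.

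All 9 genes passed the filter on low counts. With edgeR's quasi-likelihood test and an adjusted p below 0.05, 6 of the 9 were higher under the label OEIRF7, where 29.0% of the 13533 genes tested were higher, and 1 was lower, where 29.9% of all genes tested were lower. In either direction 58.9% of all genes were called, so a call alone sets a gene little apart in this comparison. With a log2 fold change past 1 as well, 4 of the 9 were higher against 4.66% of all genes and 1 was lower against 3.89%. In limma on log2(FPKM + 1), 2 of the 9, Aldh1a1 and Crabp2, were past that line, and the log2 fold changes of Adh7 and Aldh3a1 were 0.58 and 0.55. The CPM of the groups did not overlap for 5 of the 9, against 53.8% of all genes tested. The median log2 fold change of the 9 was 0.69 and that of all genes tested was 0.0015. The 9 genes were assembled with results of these data known, so these counts are a description.

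**Figure D1:**
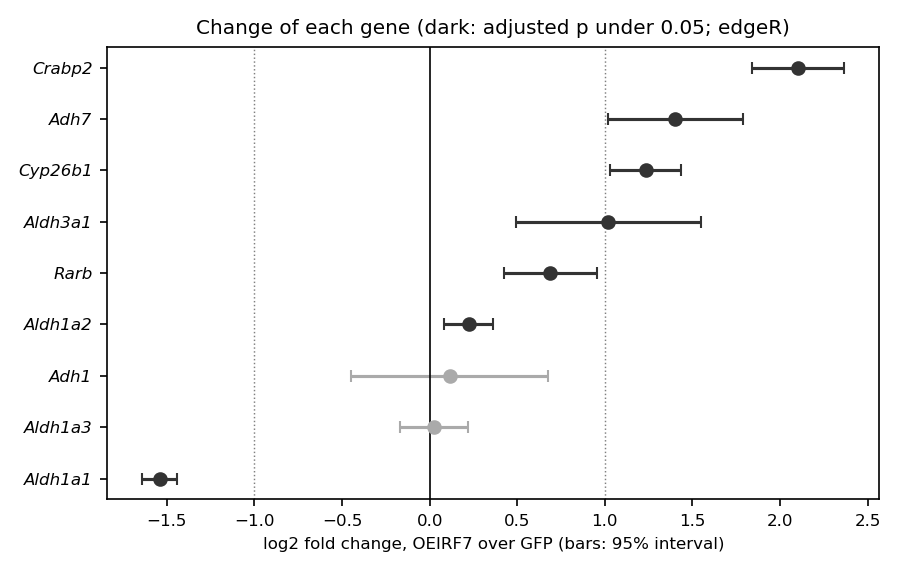
Log2 fold change of each of the 9 genes (x axis, OEIRF7 over GFP, with its 95% interval from edgeR, 4 libraries per group), genes on the y axis, dark points with an adjusted p under 0.05 and dotted lines at a log2 fold change of 1 in size. Crabp2 lies at 2.10 and Aldh1a1 at -1.54, while the intervals of Aldh1a3 and Adh1 span 0.

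The starts of 3 genes are shown because they carry the largest fall (Aldh1a1), the enzyme that removes retinoic acid (Cyp26b1) and the classical retinoic acid response element (Rarb). RefSeq start regions of GRCm38.p6, from 250 bases before to 50 bases after the start, were found for 6 of the 9 genes and in 7 versions, since Aldh1a1 has 2 starts. They are written 5′ to 3′ on the gene's strand. The start of Rarb shown here and the second start of Aldh1a1 lie inside the genes as annotated by GENCODE, downstream of their 5′ ends at 16819156 and 20492715. So does the start of Adh1 that was searched, whose region from 138277335 to 138277634 lies downstream of the 5′ end at 138260991. Capitals mark matches on either strand to the motifs described after them.

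Rarb, chr14:16575427-16575726, minus strand: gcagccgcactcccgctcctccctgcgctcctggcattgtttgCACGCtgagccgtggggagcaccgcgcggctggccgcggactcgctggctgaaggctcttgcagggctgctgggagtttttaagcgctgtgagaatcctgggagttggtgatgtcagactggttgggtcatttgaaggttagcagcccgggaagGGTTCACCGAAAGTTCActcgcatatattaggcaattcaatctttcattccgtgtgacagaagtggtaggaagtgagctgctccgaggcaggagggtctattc

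Cyp26b1, chr6:84593761-84594060, minus strand: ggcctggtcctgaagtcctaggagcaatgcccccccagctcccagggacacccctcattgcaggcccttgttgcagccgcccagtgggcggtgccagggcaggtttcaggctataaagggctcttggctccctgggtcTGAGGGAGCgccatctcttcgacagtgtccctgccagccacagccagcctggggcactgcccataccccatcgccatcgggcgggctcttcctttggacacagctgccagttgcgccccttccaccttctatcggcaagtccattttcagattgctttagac

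Aldh1a1, first start, chr19:20492333-20492632, plus strand: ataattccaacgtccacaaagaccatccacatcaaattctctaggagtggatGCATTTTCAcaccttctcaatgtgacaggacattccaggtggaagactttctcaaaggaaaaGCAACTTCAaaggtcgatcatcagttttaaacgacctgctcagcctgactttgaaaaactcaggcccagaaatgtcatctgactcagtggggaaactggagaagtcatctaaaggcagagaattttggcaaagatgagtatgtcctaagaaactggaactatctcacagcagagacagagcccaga

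Aldh1a1, second start, chr19:20601718-20602017, plus strand: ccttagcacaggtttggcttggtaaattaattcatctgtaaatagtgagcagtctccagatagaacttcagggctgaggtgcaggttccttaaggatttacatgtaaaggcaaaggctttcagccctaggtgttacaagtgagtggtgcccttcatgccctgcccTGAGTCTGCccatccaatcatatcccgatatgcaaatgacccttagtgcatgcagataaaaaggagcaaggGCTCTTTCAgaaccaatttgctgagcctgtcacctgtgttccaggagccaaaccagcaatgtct

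Retinoic acid receptors bind, as dimers with RXR, direct repeats of a hexamer (A or G, then G, then G or T, then TCA), classically with 5 or 2 bases between the copies. A repeat with 5 spacer bases, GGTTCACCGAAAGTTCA, began 53 bases before this internal start of Rarb. It was the only such match in the 7 regions found, and 0.0974% of the 32851 RefSeq start regions of mouse held one. These regions cover 6 of the 9 genes. No region was found for Crabp2, Aldh1a3 and Aldh3a1, so these were not searched for any motif. The repeat with 2 spacer bases (0.268% of all regions) and GAAA followed by any 2 bases and GAAA, the core of interferon response elements (3.44% of all regions), had no match in these 7 windows. GCGTG, the core bound by the aryl hydrocarbon receptor, matched in 3 of the 7 (Adh7, Aldh1a2 and Rarb) against 32.4% of all regions. TGANNNNGC, the core of antioxidant response elements, matched in 5 of the 7 against 41.3% of all regions. A match is only a match of letters, and binding was not measured in these libraries.

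Of the genes of the ALDH1A enzymes, which make retinoic acid, Aldh1a1 fell clearly. Aldh1a2 rose slightly with overlapping groups, and Aldh1a3 was not called. Aldh1a1 (ENSMUSG00000053279, GRCm38 chromosome 19 from 20492715 to 20643465) was at 876, 927, 810 and 813 CPM in GFP replicates 1 to 4 and at 311, 300, 280 and 287 CPM in OEIRF7 replicates 1 to 4. Every OEIRF7 library was far below every GFP library, and the spread within each group was small. The gene fell by 1.54 on the log2 scale (SE 0.047, adjusted p = 5.9e-12, edgeR), the 155th largest fall of the 13533 genes tested. An exact permutation test (two-sided, on log2 CPM) gave p = 0.029, the smallest that 4 against 4 libraries allow. It had 7083 to 23461 counts per library and the smallest SE of the 9 genes. A noncoding gene that is not in the table, C730002L08Rik, overlaps it on the opposite strand. Aldh1a7, a rodent paralog very close in sequence to Aldh1a1, with which reads may be shared, fell by 1.14 (SE 0.17, adjusted p = 3.7e-05, edgeR) from 4.31 ± 0.670 to 1.95 ± 0.336 CPM (mean ± SD of 4 libraries).

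Aldh1a2 (ENSMUSG00000013584, chromosome 9 from 71215789 to 71296243), the main retinoic acid producer of the embryonic heart, was at 18.1, 18.8, 20.9 and 18.2 CPM in the GFP libraries and at 23.2, 20.7, 23.1 and 21.7 CPM in the OEIRF7 libraries. OEIRF7 replicate 2 was just below GFP replicate 3, so the groups overlapped. The rise was 0.22 on the log2 scale (SE 0.065, adjusted p = 0.0089, edgeR), and the exact two-sided permutation test gave p = 0.057. Aldh1a3 (ENSMUSG00000015134, chromosome 7 from 66390890 to 66427517) had 266, 221, 213 and 241 counts in the GFP libraries and 273, 261, 210 and 233 counts in the OEIRF7 libraries. Its groups lay on top of each other, with a log2 fold change of 0.02 (95% interval from -0.17 to 0.22, adjusted p = 0.83 from edgeR).

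Levels of these paralogs were compared per length, in FPKM (fragments scaled to gene length and library size). Their summed level was 409 to 468 FPKM in the GFP libraries and 152 to 171 FPKM in the OEIRF7 libraries. Aldh1a1 made up 97.2% ± 0.229 of that sum under GFP and 91.7% ± 0.481 under OEIRF7 (SD, n = 4 per group). The share of Aldh1a2 was 1.93% ± 0.219 under GFP and 6.13% ± 0.458 under OEIRF7, and that of Aldh1a3 was 0.837% ± 0.0371 and 2.19% ± 0.156. Aldh1a1 was thus still the prevailing transcript of the family in all 8 libraries, and the rise in the other shares went with its fall.

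**Figure D2:**
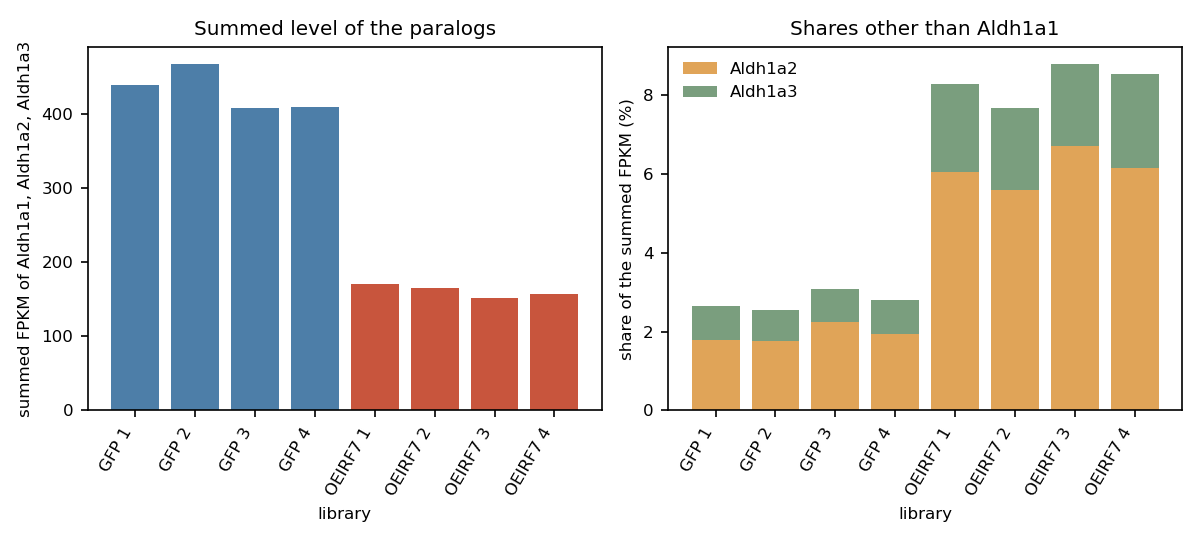
Left, summed FPKM of Aldh1a1, Aldh1a2 and Aldh1a3 (y axis) in each library (x axis; blue GFP, red OEIRF7). Right, the share of that sum in percent taken by Aldh1a2 and Aldh1a3, the rest being Aldh1a1, which held 97.2% on average in the GFP libraries and 91.7% in the OEIRF7 libraries.

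Of the alcohol dehydrogenases, which can oxidise retinol, Adh7 differed between the groups. Adh7 (ENSMUSG00000055301, chromosome 3 from 138217760 to 138233382) had 39, 35, 35 and 40 counts in the GFP libraries and 71, 132, 104 and 98 counts in the OEIRF7 libraries. All OEIRF7 libraries were above all GFP libraries, replicate 1 being the lowest of them. The log2 fold change was 1.40 (SE 0.18, adjusted p = 9.7e-06, edgeR), from 1.45 ± 0.0550 to 3.84 ± 0.767 CPM (mean ± SD of 4 libraries). Its neighbour Adh1 (ENSMUSG00000074207, chromosome 3 from 138260991 to 138290698) had 23, 31, 18 and 24 counts in the GFP libraries and 22, 40, 21 and 24 in the OEIRF7 libraries. The groups of Adh1 overlapped, and at this depth the log2 fold change was 0.11 with a 95% interval from -0.45 to 0.68 (adjusted p = 0.73 from edgeR). Both genes are overlapped on the opposite strand by an antisense transcript that is not among the genes of the table, and the strand setting of the counting is not stated.

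Aldh3a1 (ENSMUSG00000019102, chromosome 11 from 61207537 to 61218421) encodes an aldehyde dehydrogenase of aromatic and lipid-derived aldehydes, best known from the cornea. It had 35, 38, 44 and 31 counts in the GFP libraries and 77, 91, 42 and 98 counts in the OEIRF7 libraries. OEIRF7 replicate 3 was within the GFP range, and the other 3 were above it. The rise was 1.02 on the log2 scale (SE 0.25, adjusted p = 0.0024, edgeR), while the exact two-sided permutation test gave p = 0.057. The estimate lay between 0.85 and 1.21 when 1 library was left out at a time.

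Crabp2 (ENSMUSG00000004885, chromosome 3 from 87948666 to 87953376), the carrier of retinoic acid to its receptors, showed the largest rise of the 9 genes. It was at 3.62, 4.41, 4.66 and 5.23 CPM in the GFP libraries and at 17.7, 20.9, 16.1 and 22.3 CPM in the OEIRF7 libraries. Every OEIRF7 library was well above every GFP library, and replicates 2 and 4 were the highest of the group. The log2 fold change was 2.10 (SE 0.12, adjusted p = 2.6e-09, edgeR), the 172nd largest rise of the 13533 genes tested, and the exact permutation test gave p = 0.029.

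Rarb (ENSMUSG00000017491, chromosome 14 from 16430839 to 16819156) encodes a retinoic acid receptor and is itself a classical target of the pathway. It was at 53.1, 43.6, 68.8 and 52.6 CPM in the GFP libraries and at 85.8, 74.6, 110 and 81.1 CPM in the OEIRF7 libraries. The groups did not overlap, and replicate 3 was the highest library in both of them. The log2 fold change was 0.69 (SE 0.12, adjusted p = 0.00023, edgeR; exact two-sided permutation test, p = 0.029). Top2b, a DNA topoisomerase gene that overlaps Rarb by 4624 bases on the opposite strand, changed in the other direction and fell by 0.51 (SE 0.050, adjusted p = 5.8e-07, edgeR).

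Cyp26b1 (ENSMUSG00000063415, chromosome 6 from 84571414 to 84593908), the cytochrome P450 that breaks down retinoic acid, had 168, 144, 194 and 165 counts in the GFP libraries. In the OEIRF7 libraries it had 386, 412, 418 and 395 counts, and the mean level went from 6.55 ± 0.907 to 15.4 ± 1.01 CPM (mean ± SD of 4 libraries). The OEIRF7 libraries lay close together and all above the GFP libraries. The rise was 1.23 on the log2 scale (SE 0.095, adjusted p = 4.6e-08, edgeR), and the exact permutation test gave p = 0.029.

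**Figure D3:**
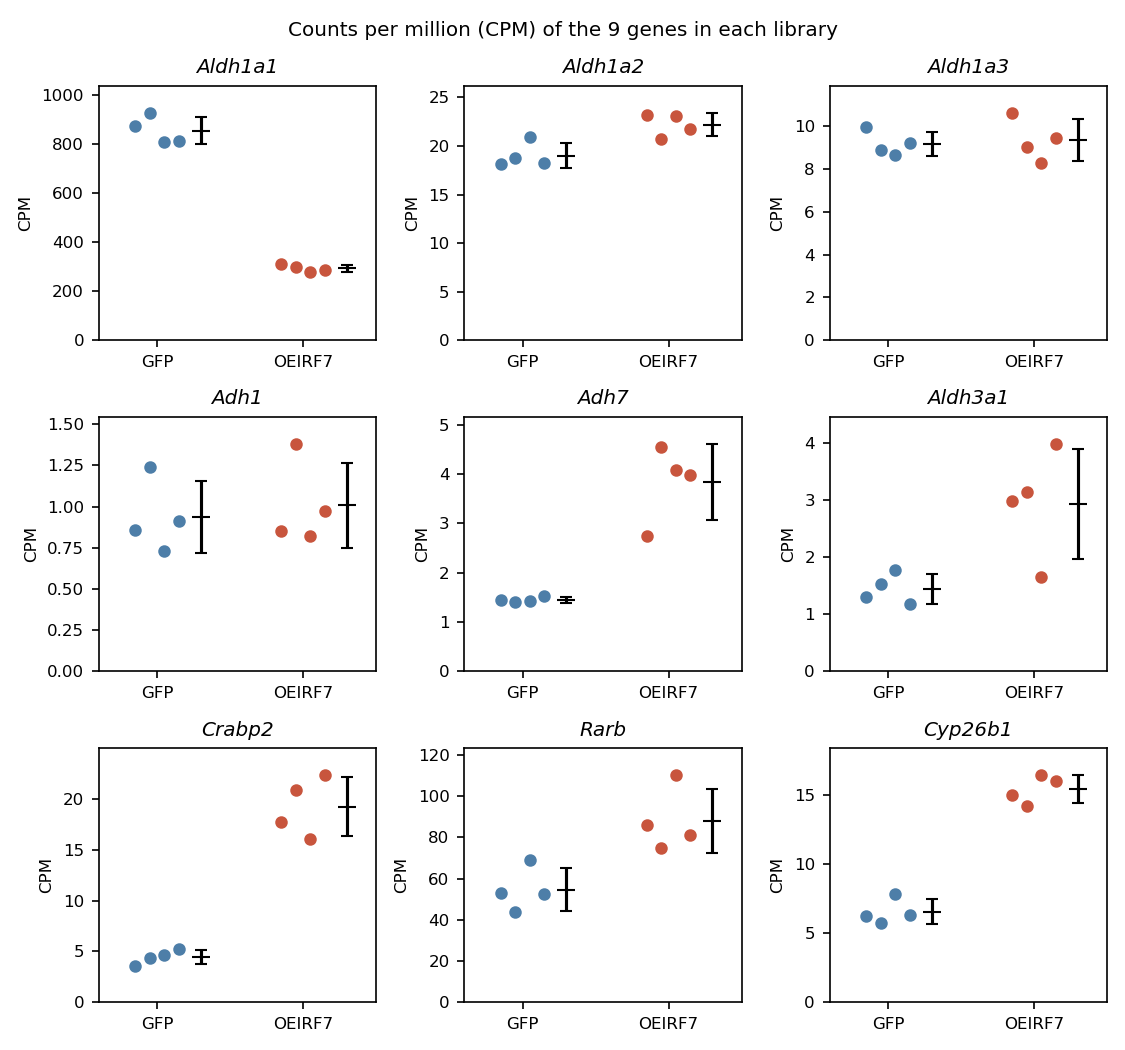
CPM (y axis, linear from 0, scaled by TMM) of the 9 genes in each library (points, replicates 1 to 4 from left to right; blue GFP, red OEIRF7), with mean and SD (black, n = 4) beside each group. The groups are apart for Aldh1a1, Adh7, Crabp2, Rarb and Cyp26b1 and overlap for Aldh1a2, Aldh1a3, Adh1 and Aldh3a1.

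Per length, the order of the levels in the GFP libraries was Aldh1a1 (420 ± 27.9 FPKM; SD, n = 4 here and below), Rarb (19.9 ± 3.32), Aldh1a2 (8.32 ± 0.594), Crabp2 (4.76 ± 0.706), Aldh1a3 (3.61 ± 0.155), Cyp26b1 (1.48 ± 0.204), Aldh3a1 (0.835 ± 0.154), Adh1 (0.633 ± 0.149) and Adh7 (0.420 ± 0.0141). Among neighbours in this order, the ranges of the libraries overlapped only for Aldh3a1 and Adh1. In the OEIRF7 libraries Crabp2 (20.8 ± 3.14 FPKM) stood above Aldh1a2 (9.88 ± 0.514), and Cyp26b1 (3.61 ± 0.123) had reached Aldh1a3 (3.53 ± 0.323), whose range it overlapped. Adh7 (1.13 ± 0.225 FPKM) had moved above Adh1 (0.685 ± 0.183) with overlapping ranges, and its range also overlapped that of Aldh3a1 (1.72 ± 0.567). Aldh1a1 (148 ± 8.44 FPKM) and Rarb (31.3 ± 5.78) again had the highest places. Aldh1a1 was at rank 212 of all genes by mean FPKM over the 8 libraries, while Adh7 was at rank 11709 and Adh1 at rank 11916.

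The profile of Crabp2 over the 8 libraries, as log2 CPM centred on its mean, was closest among 12489 genes with a mean above 1 CPM to that of Elfn1, followed by the cadherin gene Cdh6 and Grip1 (Euclidean distances of 0.35, 0.43 and 0.43, Pearson's r of 0.994, 0.995 and 0.990). That of Aldh1a1 was closest to Reck, which encodes an inhibitor of matrix metalloproteinases, followed by Adamtsl3 and Calhm5 (distances of 0.15, 0.16 and 0.19, r of 0.998, 0.998 and 0.996). With 2 groups of 4 libraries such values mostly state that genes differ between the groups by a like amount.

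Around the 9 genes, 84 other genes of the pathway and its enzyme families were examined in 8 lists, which share some genes. Of these 84, 64 were tested, 14 were higher and 25 were lower with an adjusted p under 0.05 (edgeR), and the median log2 fold change was -0.09. Over all genes tested 29.0% were higher, 29.9% were lower and the median was 0.0015. Past a log2 fold change of 1 there were 2 higher (Dhrs9 and Gprc5a) and 5 lower, against 4.66% and 3.89% of all genes tested. Of 14 retinol and retinal oxidoreductases, 6 were higher, 4 were lower and 3 were too low to be tested. Dhrs9, a retinol dehydrogenase, rose by 1.69 on the log2 scale (SE 0.11, adjusted p = 6.1e-09, edgeR), from 117, 119, 98 and 126 counts in the GFP libraries to 329, 402, 437 and 345 in the OEIRF7 libraries. Dhrs3, which reduces retinal back to retinol and is induced by retinoic acid, fell by 1.23 (SE 0.11, adjusted p = 2.7e-07, edgeR), from 37.2 ± 4.81 to 15.8 ± 2.82 CPM (mean ± SD of 4 libraries). Dhrs9 and Dhrs3 thus changed in opposite directions, each with no overlap between groups. The other called genes of this list were not sorted by the direction of their reaction, so no shift of the list towards oxidation or reduction is stated. Akr1b3, an aldose reductase, rose by 0.85 (SE 0.22, adjusted p = 0.0043, edgeR), with OEIRF7 replicate 3 at 24835 counts and the other 3 at 10355 to 13007. Rdh10, the main retinol dehydrogenase of the embryo, rose by 0.38 (SE 0.084, adjusted p = 0.0013, edgeR). It is named outside the naming rule, as are Rara, Rxra, Aldh2 and Cyp26a1 in what follows, and these were chosen after their values were seen.

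Of 14 genes for uptake, transport and storage of retinol, 1 was higher, 2 were lower and 5 were too low to be tested. The uptake receptor Stra6 and Lrat, which esterifies retinol for storage, had at most 7 counts in any library. Of 14 binding proteins, receptors and cofactors, all tested, 3 were higher and 5 lower. For both lists the share over all genes tested was 29.0% higher and 29.9% lower. Nrip1, a corepressor induced by retinoic acid, rose by 0.48, and the receptor Rarg and the coactivator Ncoa1 fell by 0.45 and 0.43 (adjusted p from 1.8e-07 to 6.4e-06, edgeR). Rara and Rxra, the receptors with which RARB shares its work, had log2 fold changes of -0.01 and -0.06 (adjusted p = 0.90 and 0.25, edgeR). Of the other CYP26 genes, Cyp26a1 had 8 to 26 counts per library and a log2 fold change of -0.78 (adjusted p = 0.062, edgeR), and Cyp26c1 was too low to be tested.

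Of 17 further genes known as targets of retinoic acid, 12 were tested. Of these, 2 were higher, 3 were lower and 7 were not called, where 29.0% of all genes tested were higher and 29.9% lower. Gprc5a, an orphan receptor first found as a gene induced by retinoic acid, rose by 1.51 (SE 0.062, adjusted p = 8.1e-11, edgeR) from 21.3 ± 0.929 to 60.4 ± 5.06 CPM (mean ± SD of 4 libraries). Dhrs3 and Nrip1, described above, belong to the same list. Of the genes named from this list, Gprc5a and Nrip1 were higher and Dhrs3 lower under the label OEIRF7. Rarb, Cyp26b1 and Crabp2, also higher, come from the 9 genes chosen with results known and are not part of these counts. The targets did not share one direction.

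Of 17 other aldehyde dehydrogenases 14 were tested, 1 was higher and 9 were lower, against 29.0% and 29.9% of all genes tested. Beside Aldh1a7, Aldh4a1 of proline breakdown fell by 0.94 (SE 0.056, adjusted p = 3e-09, edgeR) and Aldh6a1 of valine breakdown fell by 0.68 (SE 0.066, adjusted p = 5.1e-07, edgeR). Aldh2, the mitochondrial enzyme of acetaldehyde, was at 200 FPKM under GFP and 194 FPKM under OEIRF7 on average, and it fell by 0.08 on the log2 scale (adjusted p = 0.040, edgeR). Among the other alcohol dehydrogenases 2 of 5 were tested. Adhfe1 fell by 1.10 and Adh5, the formaldehyde-clearing enzyme present in most cells, fell by 0.11 (adjusted p = 0.00022 and 0.0093, edgeR).

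**Figure D4:**
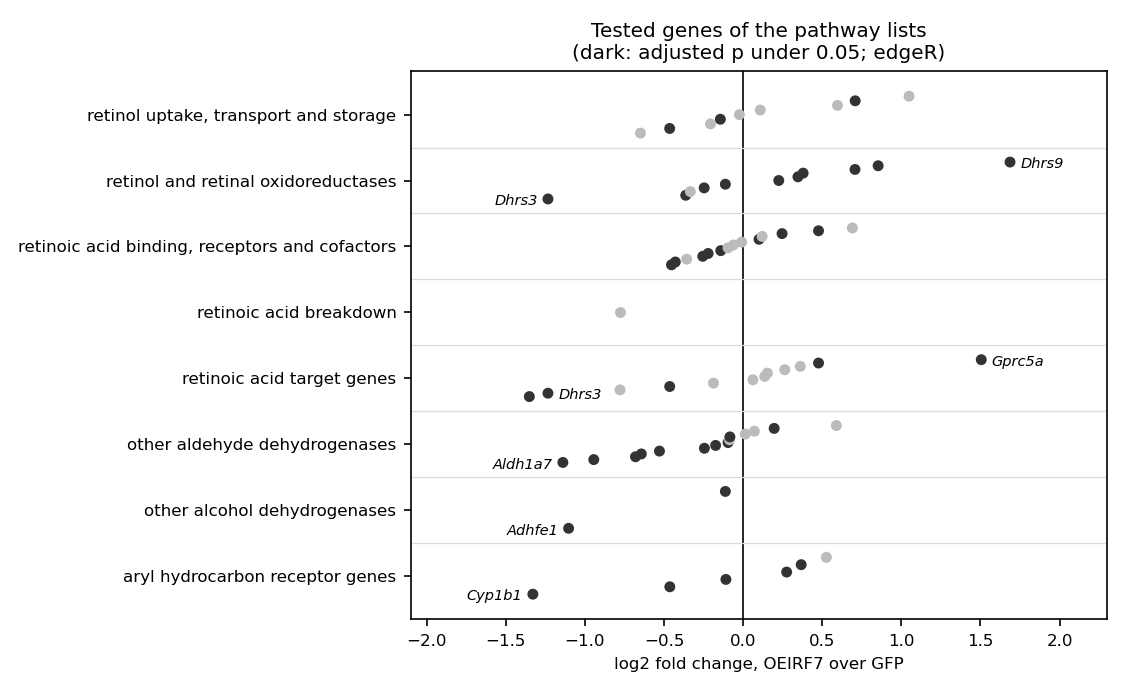
Log2 fold change (x axis, OEIRF7 over GFP) of each tested gene of the 8 pathway lists (y axis), dark where the adjusted p was under 0.05. Dhrs9 and Gprc5a lie highest at 1.69 and 1.51, and Dhrs3, Cyp1b1, Aldh1a7 and Adhfe1 lie below -1, as does Rarres2, unlabelled, which had 3 to 23 counts per library and overlapping groups.

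ALDH1A enzymes and several of their partners also mark epicardial and mesothelial cells. Of 8 markers of these cells 7 were tested. Of these, 2 were higher and 3 lower, where 29.0% of all genes tested were higher and 29.9% lower. The summed level of the 8 markers was 223 to 238 CPM in the GFP libraries and 165 to 178 CPM in the OEIRF7 libraries. Upk3b fell by 1.32 and Krt19 rose by 1.96 on the log2 scale (adjusted p = 2.8e-08 and 3.7e-07, edgeR), and Wt1 had at most 21 counts in any library. Of the 8 fibroblast markers 1 was higher (Pdgfra, log2 fold change 0.25, adjusted p = 0.0025, edgeR), 5 were lower and 2 (Dcn and Col1a2) were not called. Tcf21, a factor of epicardium-derived fibroblasts, and the collagen gene Col3a1 fell by 1.33 and 0.53 (adjusted p = 2e-08 and 6.5e-07, edgeR). The part of these cells in the fall of Aldh1a1 was not tested.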

How the data were processed

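RNA of 8 libraries of TGF-β-treated primary murine cardiac fibroblasts was analysed. The authors trimmed the reads with Trimmomatic, mapped them with HISAT2 to GRCm38 and deposited raw counts per gene from HTSeq-count together with FPKM from Cufflinks. Tool versions and the strand setting are not given in the sources used here. Columns deposited with the authors' own test (mean FPKM per group, log2 ratio, p-value, FDR) were left aside. In the table, 121 symbols held the letters GFP in place of others and were restored by Ensembl identifier (22219 of 22274 found in GENCODE M21, also the source of coordinates).

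Counts were analysed with edgeR 4.0.16 in R 4.3.3 (filterByExpr, TMM factors from 0.989 to 1.01, glmQLFit and glmQLFTest, no covariates, Benjamini-Hochberg adjustment over 13533 genes). CPM are on TMM-scaled library sizes, and log2 CPM used a prior count of 2. The standard error is the log2 fold change divided by the square root of F, and intervals are 95%. Replicates differed beyond sampling noise (chi-square over its degrees of freedom, 2.69 to 8.67). The tests were tested on simulated data. Alternatives were DESeq2 1.42.0, other scalings and filters, a block for the replicate number, fits without each library in turn, and limma 3.58.1 on log2(FPKM + 1) and log2(FPKM + 0.1).

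The genes and lists were chosen with earlier results of these data known. Beside the 9 genes, the text names per list up to 3 called genes with the largest change among those whose groups did not overlap and whose mean was above 1 CPM, and any other as chosen later. The values of 1 gene that this rule would name are not reported here. Promoter sequences are from RefSeq.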

Additional observations from a re-analysis of the deposited data

How the results depend on the processing

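The calls of the 9 genes, 6 higher and 1 lower, were the same in number under all 17 alternatives, which were DESeq2, library size only, upper-quartile scaling, 2 other filters on counts, the replicate block, 8 fits without 1 library and 3 fits of limma on FPKM. With the replicate block the log2 fold change was 2.10 for Crabp2 and -1.54 for Aldh1a1. The signs that turned were those of genes without a call. Aldh1a3 had a log2 fold change of -0.025 in limma on log2(FPKM + 1) with and without a filter and of -0.032 on log2(FPKM + 0.1), and between -0.042 and 0.078 without 1 library at a time. Adh1 lay between -0.084 and 0.28 without 1 library. The number of the 9 past a log2 fold change of 1 moved from 5 to 2, Aldh1a1 and Crabp2, in limma on log2(FPKM + 1), where low genes show smaller changes. Aldh3a1 also dropped under that line in limma on log2(FPKM + 0.1), with a log2 fold change of 0.92. The same held with the replicate block and without GFP replicate 1, GFP replicate 4, OEIRF7 replicate 2 or OEIRF7 replicate 4. Of the 84 pathway genes, 11 to 17 were higher and 19 to 26 lower over all alternatives. Same-numbered libraries correlated weakly in their deviations (r from 0.079 to 0.14, 2 of 4 pairs above 0.1). Yet each of the 8 correlated best with its own number. The main fit did not take them as pairs, and whether the numbers stand for pairs is not known. With the replicate block the SE went from 0.12 to 0.039 for Rarb and from 0.047 to 0.029 for Aldh1a1. For Aldh3a1 it was 0.25 with and without the block. Adh1, Adh7 and Aldh3a1, with at most 132 counts in a library, had the largest SE of the 9 genes (0.26, 0.18 and 0.25). Without OEIRF7 replicate 3 the SE of Aldh3a1 was 0.20. The part of depth in these SE was not tested.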

Other observations

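Genes of the aryl hydrocarbon receptor, through which Aldh3a1 is inducible, did not share one direction. Of 8 genes 6 were tested, 2 were higher and 3 lower (edgeR), where 29.0% of all genes tested were higher and 29.9% lower. The part of the receptor in the rise of Aldh3a1 was not tested. Cyp1b1, a classical target that can also oxidise retinol, fell by 1.33 on the log2 scale (SE 0.071, adjusted p = 8.9e-10, edgeR), from 262 ± 14.1 to 104 ± 13.3 CPM (mean ± SD of 4 libraries). The receptor Ahr fell by 0.46 and Nqo1, a quinone reductase, rose by 0.37 (adjusted p = 0.00082 and 0.00018, edgeR). Tiparp of the same list, named after its value was seen, rose by 0.27 (adjusted p = 0.0004, edgeR). Cyp1a1, the target most used to read the receptor's activity, had 0, 0, 1 and 2 counts in the GFP libraries and 9, 4, 1 and 13 in the OEIRF7 libraries and was too low to be tested. OEIRF7 replicate 3, the lowest of its group for Aldh3a1, was also the lowest for Cyp1a1 and the highest for Rarb and Akr1b3.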
